A study of Mus musculus with 3 samples.

Results

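Conventional-only Tcf1 peaks inside gene bodies are the places within genes where a Tcf1 peak was listed for conventional CD4 T cells of mouse spleen and none was listed at or beside it for regulatory T cells (Treg cells). They were chosen by position from the peak lists of both cell types. A peak of the conventional list was taken if no Treg peak overlapped it, no Treg peak had its midpoint within 1000 bp, and its own midpoint lay inside the span of a RefSeq gene and more than 1 kb from every gene end. The rule selected 807 of the 4462 conventional peaks on chromosomes 1 to 19, or 18.1% (exact Clopper-Pearson 95% interval 17.0 to 19.2%), from 4519 conventional peaks in all. The Treg list held 3402 peaks, of which 3290 lay on the same chromosomes.

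DNA bound by Tcf1 was recovered with an antiserum against the protein and sequenced (ChIP-seq). Both cell types came from the spleen of wild type Foxp3-Cre-GFP mice aged 8 to 10 weeks, in which GFP marks cells that express Foxp3. Conventional cells were sorted as TCRb+, CD4+, CD25- and Foxp3-Cre-GFP-, and Treg cells as TCRb+, CD4+, CD25+ and Foxp3-Cre-GFP+. Tcf1-deficient CD4 T cells from CD4-Cre+ Tcf1 fl/fl mice were also part of the study and were not analysed here. The title and source of the conventional library call its cells conventional, while its tissue label calls them effector CD4 T cells. There was 1 library per cell type and no replicate, so no test compares the cell types, and the labels do not say whether animals were pooled. The lists hold coordinates and no read count, so depth is unknown, and how much of the difference between the lists comes from depth or from the calling threshold was not tested. A place without a listed Treg peak is not shown to be free of Tcf1.

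Tcf1, encoded by Tcf7, is an HMG-box transcription factor that binds DNA at T-rich sites and can recruit β-catenin, as its relative Lef1 does. In T cells it acts from the early thymus onward, and in mature CD4 cells it is linked to the naive and memory states and to the choice between helper fates. Peaks of such factors inside genes often lie at enhancers or at alternative start sites, which the coordinates alone do not tell apart.

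RefSeq start sites give the part of these peaks whose sequence can be shown. In 79 of the 807 peaks (9.79%) a start site from the RefSeq promoter table (GRCm38.p6, whose primary chromosomes are those of mm10) lay inside the peak, for 79 genes. The median distance from the start to the peak midpoint was 77 bp. These are starts inside a gene span, away from its ends. Among shared peaks inside gene bodies 11.1% held a listed start, and among Treg-only ones 5.91%. Around the start nearest to the midpoint of each peak a window of 300 bases, from 250 before the start to 50 after it, was searched for the TCF/LEF core CTTTGA on both strands (TCAAAG on the other). The core was in 11 of 79 windows (13.9%), beside 15.9% of all 31223 distinct windows of the table on chromosomes 1 to 19. It was in 15 of 63 windows in shared peaks inside gene bodies (23.8%) and in 3 of 27 in Treg-only ones (11.1%). In conventional-only peaks at gene ends it was in 89 of 796 (11.2%). The windows in conventional-only peaks inside gene bodies thus held the core about as often as listed starts at large. In 8 peaks the core lay within the part of the peak that a window covers, with the windows of all listed starts inside the peak searched. The rest of each peak was not searched. These 8 need not be among the 11, since the core of Zfp672 belongs to a start that is not the nearest to the midpoint. The stretches of 7 are shown because peak, start and core coincide there, and the core of the other, in Jade1, lay after the start and is not printed. Capitals mark the core, and each stretch reads 5′ to 3′ on the strand of its gene and ends before the start site.
Btbd6, chr12:112976302-112976367, plus strand: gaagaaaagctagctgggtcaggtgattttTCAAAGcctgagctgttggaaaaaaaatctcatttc
Hemk1, chr9:107338451-107338516, minus strand: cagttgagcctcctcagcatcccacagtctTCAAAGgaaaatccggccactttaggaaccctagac
Ift46, chr9:44772759-44772806, plus strand: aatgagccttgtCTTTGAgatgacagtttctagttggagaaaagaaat
Lrif1, chr3:106721546-106721611, plus strand: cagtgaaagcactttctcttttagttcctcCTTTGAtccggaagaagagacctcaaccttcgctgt
Mettl9, chr7:121034259-121034324, plus strand: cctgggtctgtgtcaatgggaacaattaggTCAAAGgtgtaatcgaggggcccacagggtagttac
Rhof, chr5:123132690-123132755, minus strand: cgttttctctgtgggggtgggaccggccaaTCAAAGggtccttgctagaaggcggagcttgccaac
Zfp672, chr11:58323275-58323340, minus strand: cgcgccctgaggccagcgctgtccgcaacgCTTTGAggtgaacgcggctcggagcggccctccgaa

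The core lay 150 bases before the listed start of Btbd6, 136 before that of Hemk1, 238 before that of Ift46, 106 before that of Lrif1, 156 before that of Mettl9, 96 before that of Rhof and 197 before that of Zfp672. The nearest Treg midpoint was 3.69 kb away for Rhof, which encodes a small GTPase, and 612 kb away for Zfp672, a zinc finger gene. The Btbd6 peak also lay inside the span of Brf1, which encodes a subunit of the RNA polymerase III initiation factor. None of these 7 genes belonged to a T cell gene list described here.

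More common in the windows was the GC box GGGCGG, which reads CCGCCC on the other strand and is bound by factors of the KLF and SP families. It was in 52 of 79 windows (65.8%), beside 36.1% of all listed starts, 69.8% of windows in shared peaks inside gene bodies and 72.2% of windows in conventional-only peaks at gene ends. Median GC content was 62.0% in the windows of these peaks and 53.0% in all windows. The ETS letters AGGAAG were in 35.4% of the windows and in 35.0% of all. Of the genes named below, 5 are printed with the 150 bases before a start inside their peak, as examples of the starts these peaks cover, with the GC box in capitals.
Bclaf1, chr10:20312319-20312468, plus strand: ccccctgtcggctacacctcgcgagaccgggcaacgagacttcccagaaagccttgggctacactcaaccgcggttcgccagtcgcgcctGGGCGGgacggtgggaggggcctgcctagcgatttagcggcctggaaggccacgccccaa
Dgkz, chr2:91963564-91963713, minus strand: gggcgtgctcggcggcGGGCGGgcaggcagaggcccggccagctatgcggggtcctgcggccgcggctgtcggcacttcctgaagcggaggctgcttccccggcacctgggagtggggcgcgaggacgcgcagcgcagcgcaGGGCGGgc
Egr2, chr10:67537416-67537565, plus strand: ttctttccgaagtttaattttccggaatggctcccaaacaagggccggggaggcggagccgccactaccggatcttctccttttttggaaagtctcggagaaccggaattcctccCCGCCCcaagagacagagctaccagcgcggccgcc
Hnrnpl, chr7:28810740-28810889, plus strand: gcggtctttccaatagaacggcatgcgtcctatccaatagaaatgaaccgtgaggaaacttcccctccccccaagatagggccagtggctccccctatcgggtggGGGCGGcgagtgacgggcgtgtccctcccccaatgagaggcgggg
Nedd9, chr13:41359002-41359151, minus strand: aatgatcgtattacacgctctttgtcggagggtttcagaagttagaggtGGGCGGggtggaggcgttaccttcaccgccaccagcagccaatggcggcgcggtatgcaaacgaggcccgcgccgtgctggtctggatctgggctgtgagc

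These 5 starts lie inside Bclaf1, Hnrnpl and Nedd9, which hold 3 of the widest peaks, and inside Dgkz and Egr2, genes of T cell receptor signalling and of the response to it. Dgkz, a diacylglycerol kinase that dampens signalling from the T cell receptor, held 2 GC boxes in the stretch, and the other 4 held 1 each.

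Inside gene bodies, conventional-only peaks were the larger class of the conventional list. They made up 58.0% (55.3 to 60.6%) of its 1392 peaks inside gene bodies, beside 570 shared with the Treg list and 15 that overlapped no Treg peak but had a Treg midpoint within 1000 bp. The conventional-only share was 55.4% (53.4 to 57.3%) of 2428 peaks within 1 kb of a gene end and 54.2% (50.3 to 58.1%) of 642 peaks between genes, so the 3 places differed little. Intervals here and below cover counting error only. Each of the 19 chromosomes held some, from 21 on chromosome 18 to 80 on chromosome 11. The Treg list had 457 peaks inside gene bodies that met the same rule from its side.

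The peaks were narrow. Their median width was 376 bp, with quartiles of 325 and 459 bp and a range of 279 to 1359 bp, and they covered 335 kb in all. Shared peaks inside gene bodies had a median of 495 bp in the conventional list, and Treg-only ones had 317 bp in the Treg list. Wider peaks overlap others more readily and the lists have different minimum widths, 279 bp for conventional and 240 bp for Treg, so width is tied to the rule and was not tested.

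**Figure D1:**
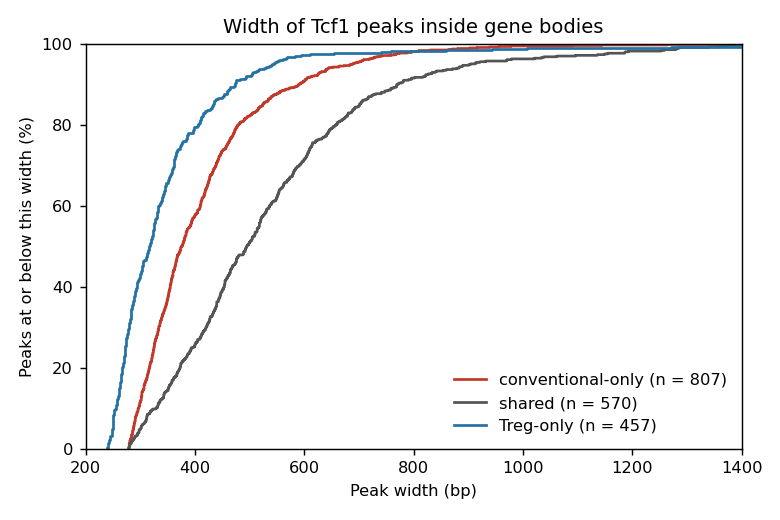
Cumulative share of peaks (y axis, percent) at or below each width (x axis, bp, shown from 200 to 1400) for conventional-only, shared and Treg-only peaks inside gene bodies, shared peaks by their width in the conventional list. The curve of the conventional-only peaks reaches its median at 376 bp, between that of Treg-only peaks at 317 bp and that of shared peaks at 495 bp.

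The rule sets the shortest distance to a Treg peak and no benchmark was drawn up, so the distances are not called long or short. The median distance to the nearest Treg midpoint was 70.5 kb (quartiles 18.7 and 214 kb). A Treg midpoint lay within 5 kb of 81 peaks (10.0%) and within 20 kb of 212 (26.3%). The nearest other conventional midpoint was at a median of 41.3 kb, and 137 peaks (17.0%) had one within 5 kb. These distances are not compared, since the rule limits only the one to Treg peaks and the lists differ in length. At the limits of the rule, the closest Treg midpoints inside it were 1018, 1025 and 1121 bp away and those just outside were 902, 867 and 779 bp away. The closest gene ends were 1008, 1019 and 1019 bp away inside the rule and 991, 989 and 987 bp outside it. The peak at 1025 bp from a Treg midpoint lay in Klf13, which encodes a Krüppel-like factor, and the one at 1121 bp lay in Egr2.

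Of the 807 peaks, 728 lay inside a protein-coding gene and 76 only inside a long non-coding RNA gene. Together they lay in 619 protein-coding genes, which is 3.37% of the 18374 such genes on chromosomes 1 to 19 that span more than 2 kb and so could hold a peak by the rule. A single peak was found in 535 of these genes, 2 in 63, 3 in 13, 4 in 7 and 5 in 1. Host genes were long, with a median span of 66.4 kb beside 21.4 kb over all 18374. The share of genes with such a peak was 0.693% for spans of 2 to 10 kb, 2.24% for 10 to 30 kb, 4.85% for 30 to 100 kb, 9.66% for 100 to 300 kb and 7.13% above 300 kb. Per megabase of gene body the number of peaks fell at each step, from 2.03 in the shortest class to 0.172 in the longest. In the longest class the conventional-only share lay close to that of shared peaks (6.94%) and below that of Treg-only peaks (11.3%), while in the 4 shorter classes Treg-only peaks had the lowest share.

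**Figure D2:**
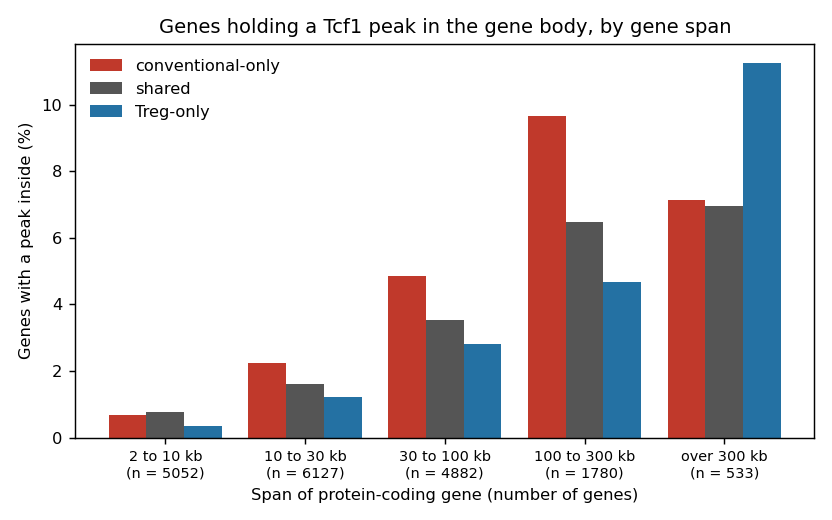
Share of protein-coding genes (y axis, percent) with at least 1 Tcf1 peak in the gene body, by span of the gene (x axis), for conventional-only, shared and Treg-only peaks. Conventional-only bars climb from 0.693% at 2 to 10 kb to 9.66% at 100 to 300 kb and stand at 7.13% above 300 kb, where the Treg-only bar is higher at 11.3%.

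Host genes carried Treg peaks more often than genes at large, although most had none. Of the 619, 235 (38.0%, 34.1 to 41.9%) had a Treg peak in the span or within 10 kb of it, beside 17.1% of all 18374 genes and 18.7% when these are weighted to the span classes of the host genes. A peak shared by both lists lay in the span of 130 (21.0%, 17.9 to 24.4%), beside 5.61% of all genes and 7.08% when weighted. A Treg-only peak lay in the span of 55 (8.89%, 6.76 to 11.4%), beside 3.57% and 5.02%. The other 384 host genes (62.0%) had no Treg peak in the span or within 10 kb, beside 82.9% of all genes and 81.3% when weighted. In some genes, then, the conventional-only peaks stood beside Treg peaks, and in others no Treg peak was listed nearby.

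Lef1, on chromosome 3, was of the first kind. This gene of 114 kb held 4 conventional-only peaks. They were chr3:131117399-131118337 of 939 bp, chr3:131137138-131137462 of 325 bp, chr3:131157464-131157876 of 413 bp and chr3:131159948-131160620 of 673 bp. Their midpoints lay 7.57, 27.0, 47.4 and 50 kb after the 5′ end of the gene, between shared peaks at 1.97 and 98.4 kb. The first is among the 12 widest of all 807.

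Tcf7, which encodes Tcf1 itself, held 1 conventional-only peak of 336 bp at chr11:52280932-52281267, 2.28 kb after the 5′ end and 2.06 kb from the nearest Treg midpoint. The same gene held 2 shared peaks and 1 Treg-only peak, so both cell types had Tcf1 peaks there. Tcf7l2, a further gene of the TCF/LEF family, held 1 of 902 bp at chr19:55915017-55915918, 174 kb into its span of 192 kb, and 1 shared peak.

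On the list of Wnt pathway regulators and targets, 8 of 36 genes long enough to hold a peak had one (22.2%, 10.1 to 39.2%). Over all genes in the same span classes, weighted as on the list, the share is 5.03%. Shared peaks inside the gene body were found in 9 of the 36. Over all genes, the share with a shared peak there was 0.772% at spans of 2 to 10 kb and 6.94% above 300 kb. The list thus stood above genes at large for shared peaks as well. Besides Lef1, Tcf7 and Tcf7l2, the 8 genes with a conventional-only peak included Znrf3 and Rnf43, whose ubiquitin ligases clear Wnt receptors from the membrane. Znrf3 held 2 peaks, of 598 bp at chr11:5413555-5414152 and of 588 bp at chr11:5415579-5416166, the nearer 2.04 kb from a Treg midpoint. Rnf43 held 1 of 355 bp at chr11:87709669-87710023, with a Treg midpoint 11.2 kb away. Gsk3b, the kinase that marks β-catenin for degradation, held 1 of 362 bp at chr16:38197327-38197688. Bcl9, a coactivator of β-catenin, held 1 of 602 bp at chr3:97273992-97274593, 494 kb from the nearest Treg midpoint.

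Genes of the naive and memory state held them most often among the 18 lists. Of 24 such genes, 11 held at least 1 (45.8%, 25.6 to 67.2%), with 17 peaks in all, beside 3.92% of all genes in the same span classes. Shared peaks inside the gene body were found in 6 of the 24 and Treg-only ones in 2. Over all genes, the share with a shared peak there was at most 6.94% in any span class. This list thus stood above genes at large for shared peaks too, and the trait is not particular to conventional-only peaks. The lists were drawn up with earlier results of these data known, so these shares describe the lists and are no test of them. Of the 11 genes, 3 had no Treg peak in the span or within 10 kb, beside 62.0% of all host genes.

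Ccr7, the chemokine receptor that brings naive T cells into lymph nodes, held the widest of all 807 peaks, 1359 bp at chr11:99146942-99148300 in a gene of 10.9 kb. No other peak of either list lay in the span, and the nearest Treg midpoint was 7.49 kb away. S1pr1, the receptor by which T cells leave lymph nodes, spans 4.62 kb and held 1 of 774 bp at chr3:115711453-115712226, 104 kb from the nearest Treg midpoint, with a second conventional-only peak at a gene end. Both are short genes, in span classes where 2.24% (Ccr7) and 0.693% (S1pr1) of all genes held such a peak.

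Bach2 encodes a repressor that holds back effector differentiation, and spans 348 kb. It held 3 peaks, at chr4:32258145-32258476, chr4:32291358-32291830 and chr4:32343665-32344137, with widths of 332, 473 and 473 bp. They lay 19.9, 53.2 and 105 kb after the 5′ end, between a shared peak at the start of the gene and one at 150 kb. Foxp1, a forkhead factor of naive T cell quiescence, held 2, of 584 bp at chr6:99261136-99261719 and of 420 bp at chr6:99486187-99486606, 128 and 97.3 kb from a Treg midpoint. Slamf6, a SLAM family receptor, held 1 of 407 bp at chr1:171939461-171939867 and no peak of the Treg list.

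**Figure D3:**
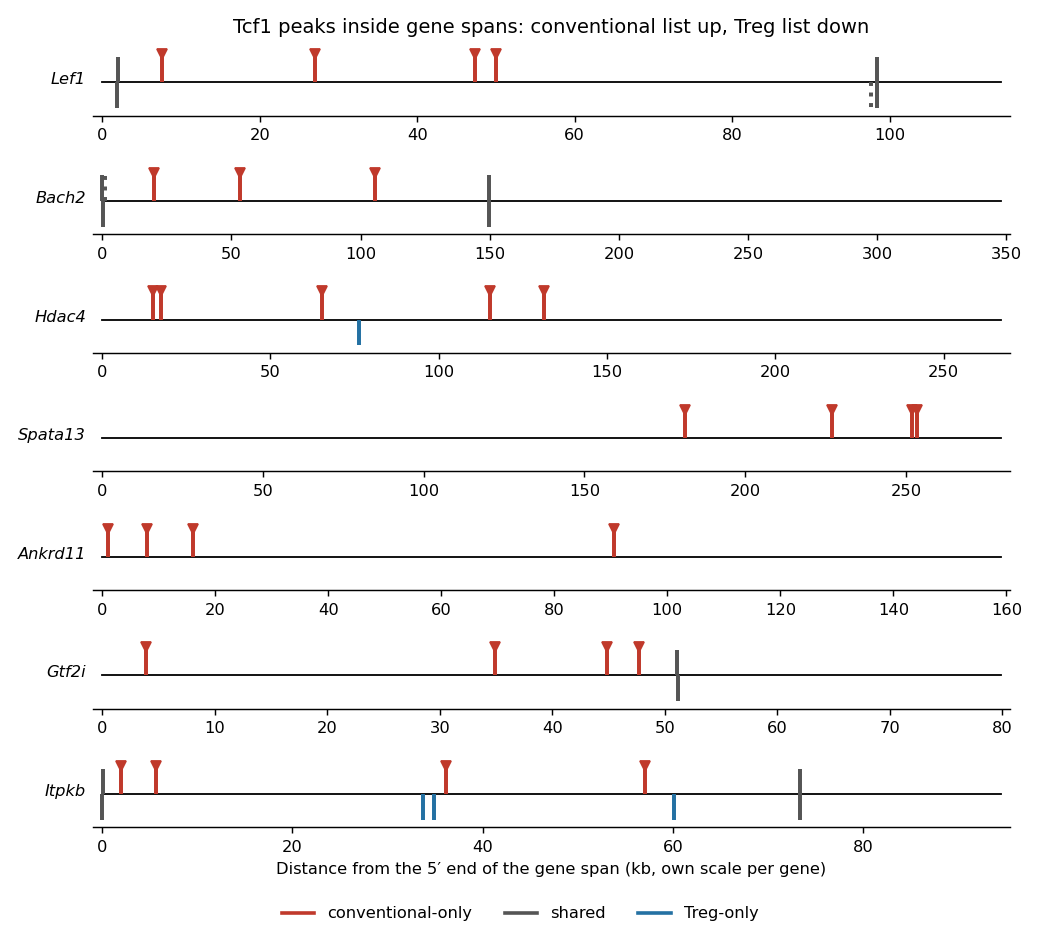
Midpoints of Tcf1 peaks along 7 genes (x axis, kb from the 5′ end of the gene span, own scale per gene), with peaks of the conventional list above the line and of the Treg list below it. Dotted marks, in the grey of shared peaks, are peaks without overlap whose midpoint lies within 1000 bp of one in the other list. Triangles mark the conventional-only peaks. Lef1 and Bach2 have them between shared peaks, and Hdac4 has 5 with 1 Treg-only peak between them. Spata13 and Ankrd11 have no Treg mark within the span, though for Ankrd11 a Treg midpoint lies 1.24 kb from its first peak.

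Transcription factors of the T lineage came next, with 12 of 32 genes (37.5%, 21.1 to 56.3%) and 14 peaks, beside 5.80% of all genes in the same span classes. Shared peaks inside the gene body were in 9 of the 32. In 10 of the 12, a Treg peak also lay in the span or within 10 kb, beside 38.0% of all host genes. Bcl11b, the zinc finger factor of T lineage commitment, held 2, of 554 bp at chr12:107921120-107921673 and of 303 bp at chr12:107969992-107970294. They were 5.35 and 23.1 kb from a Treg midpoint. Fli1 and Ets1, neighbouring genes of ETS factors, held 2 and 1. Those in Fli1 were 497 bp wide at chr9:32499421-32499917 and 290 bp at chr9:32538204-32538493, and the one in Ets1 was 436 bp at chr9:32731827-32732262. Fli1 also held 4 shared peaks, so its conventional-only peaks were the minority there.

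Zbtb7a, a zinc finger repressor, held 1 of 559 bp at chr10:81137431-81137989. Ikzf3, an Ikaros family factor, held 1 of 452 bp at chr11:98497304-98497755, and Tcf4, an E protein gene, 1 of 419 bp at chr18:69547853-69548271. The latter 2 genes had no peak of the Treg list in the span or within 10 kb, and the Tcf4 peak was 998 kb from the nearest Treg midpoint.

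In T cell receptor signalling, 9 of 38 genes held such a peak (23.7%, 11.4 to 40.2%). Over all genes in the same span classes the share was 4.98%. Of the 9, 5 had no Treg peak in the span or within 10 kb, beside 62.0% of all host genes. Shared peaks were inside 8 of the 38. Several of the 9 restrain the signal. Cblb, a ubiquitin ligase that limits T cell activation, held 2, of 306 bp at chr16:52129694-52129999 and of 442 bp at chr16:52143055-52143496, 454 and 468 kb from a Treg midpoint. Ptpn22, a phosphatase that acts on kinases of the receptor, held 2, of 329 bp at chr3:103867893-103868221 and of 386 bp at chr3:103885850-103886235. Its nearest Treg midpoint was 7.86 kb from the first. Dgkz held 1 of 557 bp at chr2:91963443-91963999, on the start site printed above and 220 kb from a Treg midpoint.

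Others carry the signal forward. Fyb, an adaptor that links the receptor to integrins, held 2, of 345 bp at chr15:6569002-6569346 and of 347 bp at chr15:6592556-6592902, and had no Treg peak within 10 kb. Prkcq, the protein kinase C of the immune synapse, held 1 of 503 bp at chr2:11195006-11195508, 9.23 kb from a Treg midpoint. Genes that restrain and genes that carry the signal were thus both among the hosts.

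Of 31 activation transcription factors 4 held a peak (12.9%, 3.63 to 29.8%, beside 2.80% of all genes in the same span classes). Each of the 4 had a Treg peak in the span or within 10 kb, beside 38.0% of all host genes. A shared peak lay in the gene body of 5 of the 31. The peak in Egr2, an early growth response gene, was 365 bp wide at chr10:67537280-67537644 and 1121 bp from the midpoint of a Treg-only peak in the same gene. Nr4a1 and Nr4a3, orphan nuclear receptors induced by antigen, held 1 each, of 393 bp at chr15:101258377-101258769 and of 354 bp at chr4:48047541-48047894. Irf2, an interferon regulatory factor, held 1 of 402 bp at chr8:46844747-46845148, 105 kb from a Treg midpoint.

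Among cytokine receptor, Jak, Stat and Socs genes 5 of 32 held a peak (15.6%, 5.28 to 32.8%, beside 3.75%), namely Il7r, Il6ra, Il4ra, Jak1 and Stat3, and 3 held a shared peak in the gene body. That in Il7r, the receptor for the survival cytokine of naive T cells, was 322 bp wide at chr15:9528648-9528969, 1.13 kb after the 5′ end, and 513 kb from a Treg midpoint. Those in Il6ra (399 bp, chr3:89896433-89896831) and Il4ra (313 bp, chr7:125561495-125561807) were 32.3 and 27.2 kb from one. Jak1 held 1 of 477 bp at chr4:101175192-101175668 and Stat3 1 of 364 bp at chr11:100891685-100892048. Il4ra and Stat3 also counted among 3 of 32 helper lineage genes (9.38%, beside 2.73%), of which 3 held a shared peak. The third was Bcl6, the factor of follicular helper cells, with 1 of 337 bp at chr16:23982412-23982748.

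Of 30 chemokine receptor and trafficking genes 4 held one (13.3%, 3.76 to 30.7%, beside 2.22%) and 5 a shared peak. Besides Ccr7 and S1pr1 these were Coro1a, an actin regulator (523 bp, chr7:126701198-126701720), and Arhgef1, a guanine nucleotide exchange factor (506 bp, chr7:24907000-24907505). Of 27 costimulatory and inhibitory receptor genes and their ligands 3 did (11.1%, 2.35 to 29.2%, beside 3.02%, which the interval holds). A shared peak was in 2 of the 27. The 3 with a conventional-only peak were Slamf6 and the neighbours Cd274 and Pdcd1lg2, which encode the PD-1 ligands PD-L1 and PD-L2. The peak in Cd274 was 302 bp at chr19:29371915-29372216, 4.78 kb from a Treg midpoint, and that in Pdcd1lg2 was 307 bp at chr19:29418802-29419108, 35.4 kb from one.

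Chromatin regulators held 14 peaks in 9 of 45 genes (20%, 9.58 to 34.6%, beside 6.54% of all genes in the same span classes), and shared peaks inside the gene body in 12. Hdac4, a class IIa histone deacetylase, held 5, more than any other protein-coding gene. They were chr1:92064329-92064733, chr1:92080288-92080632, chr1:92130369-92130686, chr1:92178000-92178462 and chr1:92180349-92180857, with widths of 405, 345, 318, 463 and 509 bp. They lay 131, 115, 65.2, 17.5 and 15.1 kb after the 5′ end, and a Treg-only peak lay between them at 76.3 kb.

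Jarid2, a partner of the Polycomb repressive complex, held 1 of 864 bp at chr13:44733373-44734236 beside 3 shared peaks. Arid2 and Arid1a, subunits of SWI/SNF complexes, held 2 and 1. Those in Arid2 were chr15:96288553-96288832 of 280 bp and chr15:96297727-96298198 of 472 bp, and that in Arid1a was chr4:133728279-133728805 of 527 bp. Kdm6b, a histone H3 demethylase, held 1 of 433 bp at chr11:69401149-69401581, and Tet3, a methylcytosine oxidase, 1 of 389 bp at chr6:83437201-83437589.

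Lists with few or none were those of Treg signature genes, the cell cycle and other cell types. Of 28 Treg signature genes only Capg, an actin capping protein gene, held one (3.57%, beside 3.67%, with shared peaks in 3 of the 28), of 434 bp at chr6:72544523-72544956. Of 28 cell cycle genes only Ccnd3, a cyclin gene, did (3.57%, beside 2.57%, with shared peaks in 2 of the 28), with 313 bp at chr17:47593426-47593738, 115 bp from a listed start inside the gene. None was found in 18 CD8 and cytotoxic, 18 B cell, 16 myeloid, 18 liver, 21 neuron or 20 housekeeping genes. For neuron genes, with a median span of 428 kb, all genes in the same span classes gave 6.93%, and the interval for 0 of 21 runs to 16.1%. For the other 5 lists the share over all genes was between 1.44 and 3.01%, and a count of 0 in so few genes is near it.

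Ikzf2, Foxp3 and Cd4, named whatever their values, held no such peak. Ikzf2, an Ikaros family gene, had 1 conventional-only peak at a gene end. Foxp3, the defining factor of Treg cells, lies on the X chromosome, outside the rule, and Cd4 had no peak in either list. Over the 18 lists together, 60 of 449 genes that could hold a peak did so (13.4%), beside 3.37% of all.

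**Figure D4:**
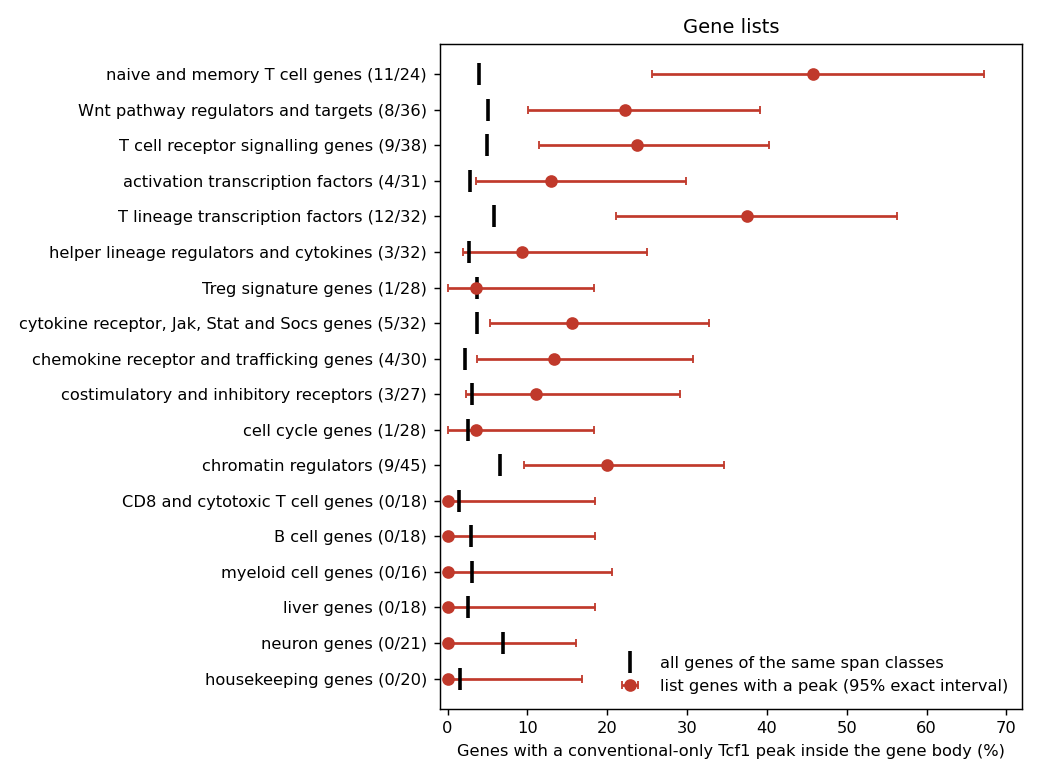
Share of list genes with a conventional-only Tcf1 peak inside the gene body (x axis, percent, points with exact 95% intervals) for 18 gene lists (y axis, genes with a peak and genes that could hold one in brackets), with bars for the share over all genes of the same span classes. The naive and memory list is at 45.8% and the T lineage factors at 37.5%, against bars at 3.92% and 5.80%, and 6 lists are at 0.

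Other genes with the most peaks had various roles. Itpkb, an inositol trisphosphate kinase of lymphocyte development, held 4, with widths of 652, 458, 342 and 346 bp at 1.95, 5.65, 36.2 and 57.1 kb after the 5′ end. The first was chr1:180332016-180332667. This gene also held 2 shared and 3 Treg-only peaks, and the closest Treg midpoint lay 1.33 kb from one of the 4. Prkch, a protein kinase C, held 4 of 307 to 590 bp, the widest at chr12:73687066-73687655, and 3 shared peaks. Gtf2i, a general transcription factor gene, held 4 of 303 to 599 bp, the widest at chr5:134282461-134283059. Arhgef10, a guanine nucleotide exchange factor, held 4 of 279 to 440 bp, the widest at chr8:14997986-14998425.

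Spata13, also a guanine nucleotide exchange factor, held 4 and had no Treg peak in its span or within 10 kb. They were 365, 640, 718 and 448 bp wide, lay 181 to 253 kb into a gene of 279 kb, and were 308 to 380 kb from a Treg midpoint, the widest at chr14:60736645-60737362. Stk24, a Ste20-type kinase, held 3 of 698, 307 and 639 bp, 537 to 591 kb from a Treg midpoint, the widest at chr14:121324912-121325609. Ankrd11, which encodes an ankyrin repeat protein of chromatin, held 4 of 374 to 450 bp, the widest at chr8:123034194-123034643. No Treg peak lay in its span, but a shared peak lay within 10 kb. The Ankrd11 peak nearest the 5′ end was 1.24 kb from a Treg midpoint. Among genes with 3, Ext1, a heparan sulfate polymerase, had its widest at chr15:53267084-53267785 (702 bp), Ago2, the RNA interference nuclease, at chr15:73137433-73138166 (734 bp) and Rnf157, a ubiquitin ligase, at chr11:116369158-116369784 (627 bp). The genes with several peaks thus ranged from those with no Treg peak nearby to those that held Treg-only peaks as well. Among the latter were Itpkb, Ago2, Ext1 and Hdac4.

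Several of the 12 widest peaks lay near the 5′ end of a gene. After Ccr7 came Bclaf1, which encodes a nuclear protein of RNA processing, with 1265 bp at chr10:20311995-20313259, and Hnrnpl, a splicing regulator, with 1144 bp at chr7:28810460-28811603. Both held a listed start inside and no Treg peak in the span or within 10 kb. Nap1l4, a histone chaperone, held 1090 bp at chr7:143548253-143549342, 1.09 kb from a gene end. Kat6b, a histone acetyltransferase, held 881 bp at chr14:21500398-21501278, 1.62 kb after its 5′ end, and Nsmce1, a subunit of the SMC5/6 complex, 870 bp at chr7:125488543-125489412, 2.47 kb after its 5′ end. Nedd9, an adaptor of integrin signalling, held 916 bp at chr13:41358726-41359641 on a start inside the gene, 128 kb from the 5′ end. Farther inside lay those of Itpk1, an inositol phosphate kinase (978 bp, chr12:102651854-102652831, 52.5 kb), and Pced1b (956 bp, chr15:97372674-97373629, 126 kb).

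Along the host gene the peaks leaned to the 5′ side. For 643 of the 807 a host gene had a strand in the promoter table. Their midpoints lay a median of 19 kb after the 5′ end of the gene (quartiles 5.21 and 55.9 kb). The rule takes no peak within 1 kb of either end, so both outermost stretches of a gene have less room for one. The first 10% of the gene's length held 111 (17.3%) and the last 10% held 31 (4.82%). Cut into 3 equal stretches from the 5′ end, the genes held 299, 201 and 143.

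The first 33.3% of the gene's length held 46.5% of the conventional-only peaks (42.6 to 50.4%) and 37.8% of 357 Treg-only ones (32.8 to 43.1%), a difference of 8.69 percentage points (Newcombe 95% interval 2.28 to 14.9). The first 10 kb held 36.5% (32.8 to 40.4%) and 28.9% (24.2 to 33.9%), a difference of 7.70 points (1.59 to 13.6). Peaks of 1 library are not replicates, and the intervals cover counting error over peaks, so these are differences between 2 lists and no difference between the cell types is called. With gene ends put at 5 kb, the difference over the first 10 kb was 2.72 points.

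Shared peaks leaned to the 5′ side as well. The first 33.3% of the gene held 45.6% of 450 shared peaks, 0.945 points less than of conventional-only peaks (-5.05 to 6.91). The first 10 kb held 41.6% of them, and conventional-only peaks minus shared ones gave -5.01 points (-10.9 to 0.848). This difference was -7.99 points with a Treg limit of 5 kb and -10.0 points with one of 20 kb, settings that leave out the conventional-only peaks nearest to Treg peaks. A start site of the RefSeq table lay within 1000 bp of 127 conventional-only peaks (19.8%), of 21.8% of shared peaks and of 14.8% of Treg-only peaks, a measure added after seeing the data.

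**Figure D5:**
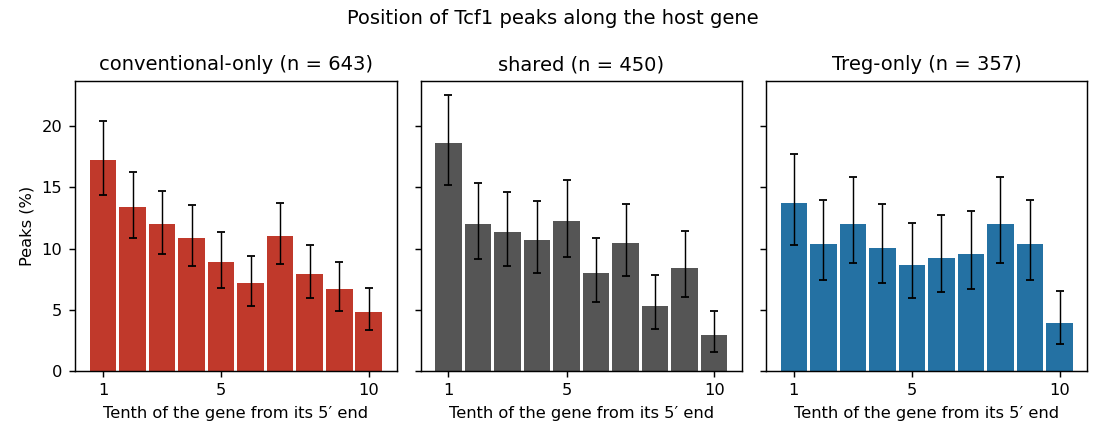
Share of peaks (y axis, percent) in each of 10 equal stretches of the host gene from its 5′ end (x axis) for conventional-only, shared and Treg-only peaks inside gene bodies, with exact 95% intervals. Conventional-only peaks fall from 17.3% in the first stretch to 4.82% in the last.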

How the data were processed

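The deposited lists of the conventional and the Treg library, made by the authors on mm10 per the labels, hold 3 columns per peak (chromosome, start and end, in bp) and no score. Per the submitters' processing notes the tools were FastQC, Bowtie2 2.3.4.1 and MACS2 2.1.1. What the filter on the lists, the control and the calling threshold were is not stated in the labels. Threshold and depth can change the length of a list and the width of its peaks, which was not tested here.

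Gene spans came from a RefSeq table of GRCm38.p6 with 49943 genes used, without exons or introns, so exonic and intronic peaks were not told apart. Strand and start sites came from the RefSeq promoter table (32851 windows of 27025 genes, which is not complete). Gene ends were both ends of each span. Coordinates are 1-based. Computation used Python 3.11.15, numpy 2.4.6, pandas 2.3.3, scipy 1.17.1 and matplotlib 3.10.9. Sorting of peaks by class and place and the search for host genes were tested on simulated data. Position along the gene was not part of that test. The planned two-sided Fisher's exact tests of position used Benjamini-Hochberg adjustment over 6 tests (2 of them on the added near-start measure). They treat peaks of 1 library as independent and are used for no call.

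The members, the gene lists and the tests were chosen with earlier results of these data known. The 18 lists hold 470 genes, of which 469 matched by symbol. Genes were named by a rule: 7 fixed genes, the 12 protein-coding genes with the most peaks, the hosts of the 12 widest peaks, and from each list up to 6 members with the most peaks, or all where 5 or fewer had one. Of these genes 1 is left out of the text. Other genes were named after their values were seen, namely Klf13, Brf1, Clcn4, Trac, the genes with a core and the non-coding hosts. A planned motif search in whole peaks, with its alternatives, could not be done without the genome, and the promoter windows took its place.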

Additional observations from a re-analysis of the deposited data

How the results depend on the processing

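The rule was varied in 12 ways, of which 1 (more than 1 kb from listed starts) was added after seeing the data. The number of peaks ran from 263 to 937, of host genes from 227 to 723 and of list genes with a peak from 26 to 64. Among the counts over all genes, those that moved were 490 peaks and 372 host genes with gene ends put at 5 kb, 35 list genes with a Treg limit of 20 kb, 263 peaks, 227 host genes, 26 list genes and a median width of 515 bp in the wider part of the conventional list, and 527 peaks and 428 bp with lists of equal length. Removing dense arrays removed 0 peaks, and calling peaks shared only from 50% overlap left the same 807 peaks, 619 host genes and 60 list genes. Neither setting thus tells how stable these counts are. The naive and memory list had 5 to 12 genes with a peak over the 12 settings, while the activation and the trafficking lists fell to 0 with ends at 5 kb, and the activation, helper, costimulatory and cell cycle lists to 0 in the wider part. The B cell, CD8, myeloid, liver and neuron lists had 0 in each.

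Two-sided Fisher's exact tests over peaks had been planned for the position differences. They treat peaks of 1 library as independent, so no call is made from them, and values are given where a setting crossed their adjusted threshold of 0.05. Against Treg-only peaks the adjusted p moved above it at differences of 7.43 points (first 10 kb) and 8.33 points (first 33.3% of the gene) with overlap alone, 6.83 and 7.92 with a Treg limit of 20 kb, 2.72 and 5.74 with gene ends at 5 kb, 5.63 and 5.53 in the wider part, 7.34 and 8.55 with merged peaks, and 7.24 for the first 10 kb away from listed starts. For the near-start share the adjusted p moved below it at 6.55 with a Treg limit of 5 kb, 7.22 with ends at 500 bp, 6.56 with protein-coding genes alone and 6.74 with equal lists. Against shared peaks, the first 10 kb gave -7.99 and -10.0 points, with adjusted p below it, with Treg limits of 5 and 20 kb. The sign turned for the first 33.3% (-2.05 at 20 kb, -0.339 with protein-coding genes, -3.03 in the wider part) and near starts (0.492 with shared peaks from 50% overlap, 1.92 with ends at 5 kb, 1.94 in the wider part). The causes were not tested.

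No paired analysis was possible because each cell type has 1 library, and for the same reason no replicate was left out. Motif alternatives were not run. The lists give no depth, so the peaks that more reads would add are unknown.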

Other observations

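Of the conventional-only peaks inside gene bodies, 95 lay in a long non-coding RNA gene, over 92 such genes, and 76 of these lay in no protein-coding gene. The widest of the latter was 809 bp at chr6:31216470-31217278 in Lncpint, 1600 bp after its 5′ end and 40265 bp from the nearest Treg midpoint. Gm20139 held 3, of 292, 322 and 566 bp on chromosome 10, the widest at chr10:19188177-19188742, and the nearest Treg midpoint was 122561 bp from the first. Dleu2, host of a miRNA cluster, held 1 of 352 bp at chr14:61648732-61649083.

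The T cell receptor alpha constant gene Trac held 1 of 284 bp at chr14:54222281-54222564, within the Tcra locus, 2892 bp from the nearest Treg midpoint. A single hairpin of the RefSeq miRNA table lay within 1000 bp of a peak, Mir5620, 891 bp from the peak at chr7:7297540-7298000 in Clcn4. No other hairpin of that table was as close.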
